A study of Mus musculus with 4 samples.

Results

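The genes described here encode phospholipases A2 other than the small secreted enzymes, measured in bronchial epithelial cells from mouse lungs, in a model of asthma with ovalbumin (OVA) as the allergen. They are Pla2g4a to Pla2g4f, Pla2g6, Pla2g7, Pla2g15 and Pla2g16, which RefSeq now calls Plaat3. The members are all 12 probes that carry one of these gene names in the scanner files, of 39429 probes, and each gene was represented by its brightest probe, so they make 10 of 28663 genes.

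The study used 4 single-colour Agilent arrays on labelled RNA, 1 for each group, and RNA pooled from 4 samples made each group. The groups were wild-type (Pla2g3+/+) control, control labelled Pla2g3-/-, wild-type antigen-challenged, and antigen-challenged labelled Pla2g3-/-. Per the labels, mice were sensitised on days 0 and 14 by intraperitoneal OVA (10 µg) in alum adjuvant (1.3 mg), then breathed a 1% OVA aerosol for 30 min on each of days 26, 27 and 28, and cells were taken 3 h after challenge. The labels do not say which of these steps the control mice went through, nor the strain, age or sex of the mice, how the Pla2g3 allele was made, or whether the pooled samples were single mice. With 1 array per group no difference between 2 arrays has a replicate check or a p-value.

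Values are intensity units as Feature Extraction processed them, or log2 of that signal relative to the 75th percentile of its array, so a log2 difference of 1 is 2-fold. The error given with a difference is the scanner software's own error for the 2 spots. It covers neither pools nor labelling. Feature Extraction flags a spot as well above background where it is clearly brighter than its surroundings, and 78.7% to 81.5% of the probes on an array had that flag. The targeted gene went against its label: the brighter Pla2g3 probe read 239 (control) and 254 (challenged) units in wild type, and 2023 (control) and 4154 (challenged) units on the arrays labelled Pla2g3-/-. The dimmer probe read 44.1 (control) and 13.1 (challenged) units in wild type, and 177 and 336 units on the arrays labelled Pla2g3-/-. The labels do not say whether either probe lies in the deleted part, and a probe outside it checks nothing. Genotype directions below follow the labels. The epithelial markers fixed for this work were well above background on all arrays for 10 of 10 genes. Of the T cell markers, 13 of 13 were as well, and their summed level relative to the 75th percentile was 36.7 on the control array labelled Pla2g3-/-, against 5.0 to 7.06 on the other 3. The summed level of 10 thymocyte markers was 24.7 there, against 1.11 to 2.07. In pools such as these, fewer cells of a type and less RNA per cell cannot be told apart.

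Phospholipases A2 cut the fatty acid from the middle position of membrane phospholipids, which releases a free fatty acid and a lysophospholipid. When that fatty acid is arachidonic acid, cyclooxygenases and lipoxygenases turn it into prostaglandins and leukotrienes, which act on airway muscle, mucus and leukocytes. The group IV enzymes are the cytosolic phospholipases A2, of which Pla2g4a encodes the calcium-dependent alpha form that prefers arachidonic acid. Pla2g4c encodes the gamma form, which works without calcium, and Pla2g6 encodes another calcium-independent enzyme. The product of Pla2g7 is the plasma platelet-activating factor acetylhydrolase. It is released from cells, so the word intracellular does not describe that member.

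Pla2g4c was the member with the widest range. Its only probe, at chr7:13941578-13941637 on the plus strand (mm9), read 17.2 units on the wild-type control array, 186 on the control array labelled Pla2g3-/-, 255 on the wild-type challenged array and 1549 on the challenged array labelled Pla2g3-/-. It was lowest in wild-type cells without challenge and highest in challenged cells labelled Pla2g3-/-, with the remaining 2 arrays close together in between. The highest array was 90.6-fold above the lowest.

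The Pla2g4c signal was higher after challenge in both genotypes. The log2 difference was 4.03 in wild-type cells (16.3-fold, scanner error 0.30) and 2.95 in cells labelled Pla2g3-/- (7.73-fold, scanner error 0.20). In wild type, of 24080 genes with a value, 3 had a positive difference at least as large as that of Pla2g4c, itself included, and in cells labelled Pla2g3-/- there were 88 of 23741. The genotype differences had the same sign in both conditions, with 3.55 between the control arrays (11.7-fold, scanner error 0.30) and 2.47 between the challenged arrays (5.55-fold, scanner error 0.20). The control array labelled Pla2g3-/- and the wild-type challenged array differed by 0.48 in favour of the latter, with a scanner error of 0.21. Each array enters 2 of the 4 comparisons, so their differences are not independent of each other.

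The size of the differences that involve the wild-type control array rests on a dim value. On the wild-type control array the probe carried the above-background flag, and its 17.2 units compare with a lowest such signal of 9.66 units and a 95th percentile of 7.36 units over 153 spots of negative control probes. One of these negative control spots read as much as 99.0 units. Repeated spots of 23 other probes of about that brightness had a median SD of 0.36 on the log2 scale there, against 0.06 to 0.08 at the brightness of Pla2g4c on the other 3 arrays. Normexp background correction was run with an offset of 50 units added to every signal, more than the 17.2 units read here, which compresses dim signals. It gave challenge differences of 1.95 for the wild type and 2.56 for cells labelled Pla2g3-/-, and genotype differences of 1.60 and 2.20. The difference between the challenge effects, labelled Pla2g3-/- minus wild type, was −1.08 (scanner error 0.36) and turned to 0.60 with that correction. It was −1.12 with quantile normalization and −1.04 when scaled to the median. Other offsets were not tried, so the part of the offset in the change of sign was not tested. Which genotype had the larger challenge effect is not settled.

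**Figure D1:**
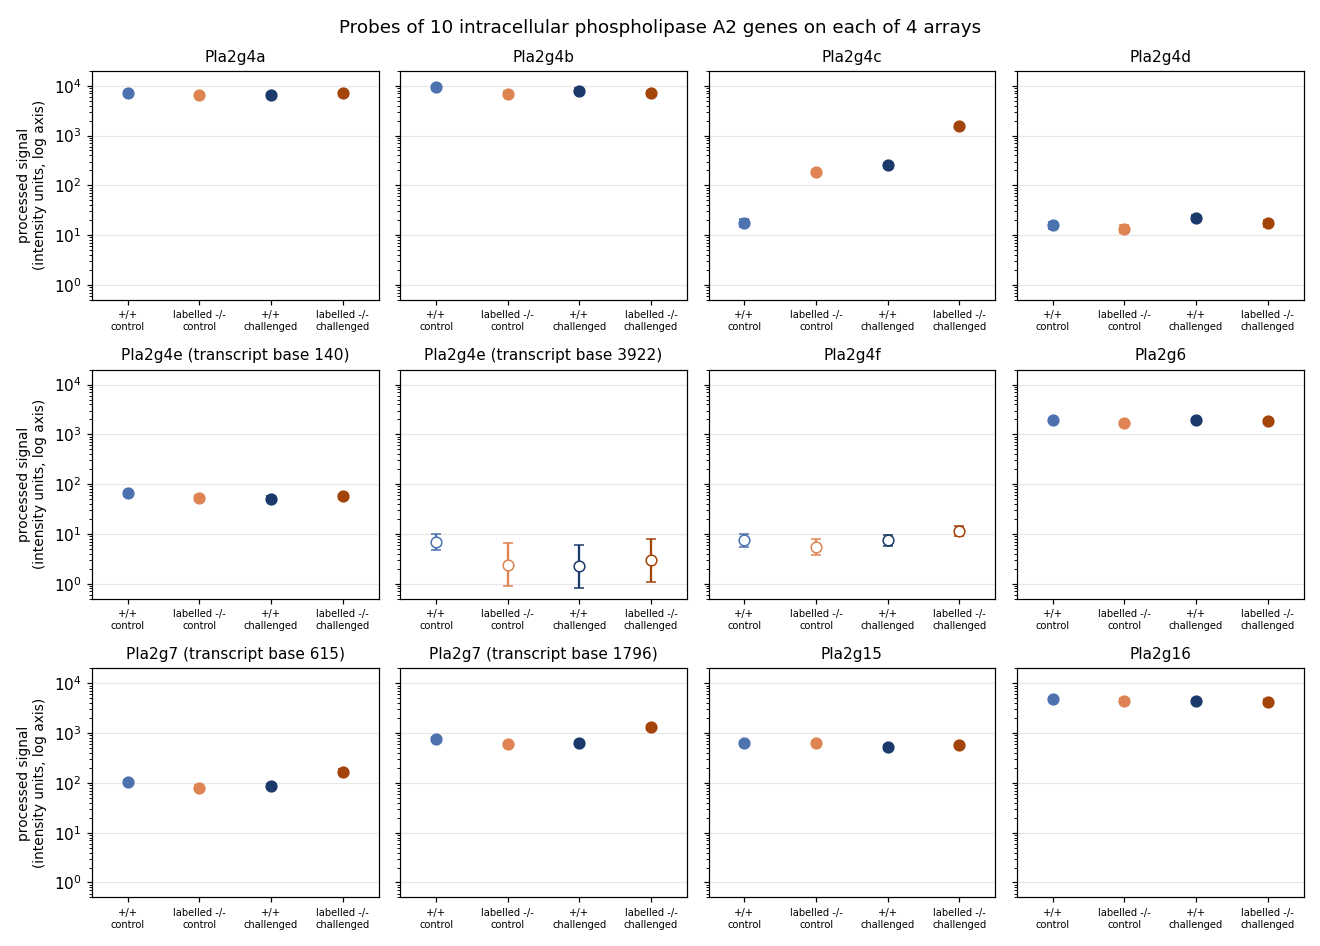
Processed signal of the 12 probes on each of the 4 arrays, in intensity units on a log axis, with bars for the scanner error and open circles where a spot was not well above background. Pla2g4c runs from 17.2 to 1549 units, both Pla2g7 probes are highest on the challenged array labelled Pla2g3-/-, Pla2g4d runs from 13.3 to 22.0 units, the other probes above background vary less, and levels of different probes are not comparable.

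The only test across arrays was a limma model with additive terms for challenge and genotype, fitted to 23642 genes with 1 residual degree of freedom. The average challenge effect on Pla2g4c was 3.49 ± 0.30 (SE), with an adjusted p of 0.184 (limma, Benjamini-Hochberg over all genes, range 0.108 to 0.416 over the alternative settings). Its average genotype effect was 3.01 ± 0.30 (SE), with an adjusted p of 0.149 (limma, range 0.0894 to 0.332). Neither passed the threshold of 0.05. Of 9 members tested, 0 passed for challenge and 0 for genotype, against 0.00423% and 0.0% of all genes. At an unadjusted limma p under 0.05 stood 1 member for challenge (Pla2g4c), beside 14.7% of all genes, and 2 for genotype (Pla2g4c and Pla2g4b), beside 11.8%. The fit takes any disagreement between the genotypes as error.

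RefSeq lists 2 starts for Pla2g4c in the table used here (GRCm38.p6), and the array has no probe that tells them apart. Their windows of 250 bases before to 50 bases after the start are shown because this is the member whose signal differed most. Capitals mark matches, on either strand, to 5 motifs searched: GGG and CC with any 5 bases between them for NF-kB, TGANTCA for AP-1, TTC and GAA with any 4 bases between them for STAT6, TTGCNNAA for C/EBP and TATAAA for a TATA box.
Pla2g4c start 1, chr7:13325417-13325716, plus strand: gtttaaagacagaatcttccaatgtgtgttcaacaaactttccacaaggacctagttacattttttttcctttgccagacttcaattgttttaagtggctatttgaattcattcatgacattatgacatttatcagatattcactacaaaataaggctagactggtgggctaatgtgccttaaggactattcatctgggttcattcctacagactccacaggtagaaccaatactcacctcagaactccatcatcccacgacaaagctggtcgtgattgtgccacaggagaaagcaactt
Pla2g4c start 2, chr7:13329072-13329371, plus strand: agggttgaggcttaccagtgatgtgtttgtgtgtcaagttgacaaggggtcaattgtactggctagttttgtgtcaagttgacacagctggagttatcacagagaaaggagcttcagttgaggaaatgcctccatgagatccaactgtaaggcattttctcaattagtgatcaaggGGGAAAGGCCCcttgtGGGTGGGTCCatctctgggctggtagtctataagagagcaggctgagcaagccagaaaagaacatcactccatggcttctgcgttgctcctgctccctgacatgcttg
The first window held none of the 5 motifs. The second held 3 matches to the NF-kB letters, 2 of them overlapping, and 50.8% of all 32851 windows hold at least 1. The other 4 motifs occur in 7.81% (AP-1), 6.95% (STAT6), 10.8% (C/EBP) and 13.6% (TATA) of windows. A match is a description of letters and not a binding site. The second window also shares a stretch of 20 bases or more with windows of 64 other genes, while the first shares one with 0, as does the median window.

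Of the 10 nearest protein-coding genes with a probe, 5 on each side, 7 had a value for challenge in wild type and 1 of them, the vomeronasal receptor gene Vmn1r89, was at least 2-fold higher (1.31). Of all genes, 1.81% were at least 2-fold higher there. In the other 3 comparisons 0 of 6 or 0 of 7 measured neighbours were 2-fold different, beside 4.99% to 7.28% of all genes. The adjacent genes Lig1, a DNA ligase, and Cabp5 had challenge differences of 0.15 and −0.57 in wild-type cells, and of −0.48 and −0.91 with the Pla2g3-/- label. Between the control arrays they differed by 0.46 and −0.43. A pseudogene, Pla2g4c-ps, lies next to Pla2g4c in the RefSeq table, and whether the probe also binds its transcripts was not tested.

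The genes with the pattern most like that of Pla2g4c were found by the root mean square distance between 4 values, each gene's log2 signal on the 4 arrays minus its own mean, over 16419 genes well above background on all arrays, with names of clones and predicted genes left out. The nearest 6 were the noncoding RNA Mirt2 (distance 0.75), Slfn4 (0.82), the lipase gene Lipf (0.82), the chemokine genes Ccl17 (0.86) and Ccl12 (0.96), and the stefin gene Stfa2l1 (0.96). These genes were picked by distance on these same arrays, so that they follow the order of Pla2g4c is no separate result. They differ from Pla2g4c between the control arrays, where their genotype difference was 0.97 to 1.58 and that of Pla2g4c 3.55. Among the cell type lists, the summed level of 9 goblet cell markers ran in the same order, from 149 on the wild-type control array through 212 and 264 to 313 on the challenged array labelled Pla2g3-/-. Their median log2 level was 2.894, 2.885, 3.44 and 3.815 on the same arrays, so it did not rise between the control arrays. Between those arrays 1 of 9 (Clca1) was at least 2-fold higher, beside 3.19% of all genes, with a median difference of 0.08. Of 13 neutrophil markers, 6 were at least 2-fold higher after challenge of wild-type cells (median 0.93), beside 1.81% of all genes. After challenge of those labelled Pla2g3-/-, 7 were higher (median 1.1), beside 3.87%, and 1 (Mpo) was lower, beside 3.42%. For genotype, 2 were higher without challenge (median 0.36), beside 3.19%, and 7 under challenge (median 1.1), beside 3.84%. The summed level of the 13 neutrophil markers was 237, 227, 248 and 260 in the order of the arrays above. The T cell and thymocyte lists did not follow the order of Pla2g4c, since they peaked on the control array labelled Pla2g3-/-. The part of any of these cells in the Pla2g4c signal was not tested.

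**Figure D2:**
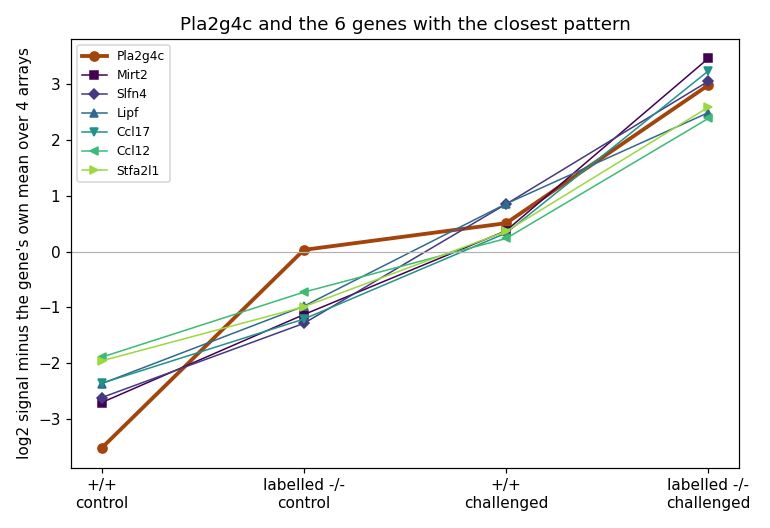
Log2 signal minus each gene's own mean over the 4 arrays for Pla2g4c (thick line) and the 6 genes nearest to it. Pla2g4c rises from −3.52 on the wild-type control array to 2.98 on the challenged array labelled Pla2g3-/-, and stands above the 6 others on the control array labelled Pla2g3-/-.

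Pla2g4a, the main source of arachidonic acid for signalling in most cells, was the steadiest member. Its probe at chr1:151676814-151676873 (minus strand, mm9) read 7100 and 6464 units on the control arrays, wild type first, and 6611 and 7188 on the challenged ones. All 4 arrays lay within 0.05 on the log2 scale after scaling, less than the scanner error of 0.20. The 4 differences ran from −0.02 to 0.04. The gene next to it on chromosome 1 is Ptgs2, the inducible cyclooxygenase that uses the arachidonic acid Pla2g4a releases, and its signal did vary. Ptgs2 read 428 and 179 units on the control arrays, wild type first, and 448 and 1502 units on the challenged arrays. Its challenge difference was 0.20 for wild type and 2.96 for cells labelled Pla2g3-/-.

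Pla2g6, which encodes the group VI calcium-independent enzyme with a role in membrane remodelling, was also level. Its probe at chr15:79116957-79117016 (minus strand, mm9) read 1914 and 1653 units on the control arrays, wild type first, and 1930 and 1882 on the challenged arrays. Its 4 differences lay between −0.17 and 0.15, each smaller than the scanner error of 0.20.

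Pla2g15 encodes the phospholipase A2 of lysosomes. The probe at chr8:108688215-108688274 (plus strand, mm9) read 621 and 625 units on the control arrays, wild type first, and 516 and 574 on the challenged arrays. The challenge differences were −0.13 for wild type and −0.23 for cells labelled Pla2g3-/-, sizes close to the scanner error of 0.20. The limma average was −0.18 with an adjusted p of 0.522.

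Pla2g16 (Plaat3) encodes a phospholipase and acyltransferase first known from fat tissue. It read 4926 and 4531 units on the control arrays and 4414 and 4314 on the challenged arrays, wild type first in each pair, at chr19:7662976-7663035 (plus strand, mm9). Its differences lay between −0.18 and −0.01. The summed level of 8 adipocyte markers was 0.167 to 0.327 over the arrays, with 6 of 8 well above background on all 4 and Lep on none.

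The Pla2g4b probe was the only member that was lower on both arrays labelled Pla2g3-/- by more than the scanner error. Pla2g4b encodes the beta form of cytosolic phospholipase A2. At chr2:119868539-119868598 (plus strand, mm9) it read 9240 (control) and 8021 (challenged) units in wild type, and 6959 and 7147 on those labelled Pla2g3-/-. The differences were −0.29 and −0.30, with scanner errors of 0.20, and the limma average of −0.30 had an unadjusted p of 0.0255 and an adjusted p of 0.335.

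The Pla2g4b and Pla2g16 probes hold sequence that is not particular to their gene. Within the 60 bases of each probe, the 20 bases shown here occur in the RefSeq start windows of 9 (Pla2g4b) and 22 (Pla2g16) other genes, and they are shown because RNA of other genes could carry them.
Pla2g4b probe, bases 38 to 57: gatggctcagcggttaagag
Pla2g16 probe, bases 26 to 45: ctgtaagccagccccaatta
Of 39429 probe sequences on the array, 3.39% shared 20 bases with the window of at least 1 gene, which may be the probe's own gene. Of the other 10 member probes, 0 shared 20 bases with the window of another gene. How much signal such shared sequence adds was not tested, so the level values of Pla2g4b and Pla2g16 may not be those genes' alone.

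The cluster of Pla2g4e, Pla2g4d and Pla2g4f on chromosome 2, which belongs to the same stretch as Pla2g4b, gave weak signals. Pla2g4d and Pla2g4f encode the delta and zeta forms, and Pla2g4e the epsilon form, which moves acyl chains onto phosphatidylethanolamine. Pla2g4d, at chr2:120091617-120091676 (minus strand, mm9), read 15.6 and 13.3 units on the control arrays and 22.0 and 17.1 on the challenged ones, wild type first. These values lie near the lowest signals called above background. The largest difference was 0.63 for challenge in wild type (scanner error 0.31), which fell to 0.15 with normexp correction.

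Pla2g4f was not well above background on any array. Its probe at chr2:120126274-120126333 (minus strand, mm9) read 7.44 and 5.51 units on the control arrays and 7.5 and 11.3 on the challenged ones, wild type first, so no difference is given. Of 12 markers of basal and squamous epithelium, 8 were well above background on all arrays and 2 (Ivl and Sprr1b) on none. The summed level of the 12 was 112 to 141.

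Pla2g4e has 2 probes that disagree. The probe near the 3′ end of the curated transcript, at chr2:119992643-119992702 (minus strand, mm9), read 2.23 to 6.87 units and was not well above background on any array. The other, at chr2:120071162-120071221 (minus strand, mm9), was well above background on all arrays, with 65.1 and 53.8 units on the controls and 51.0 and 56.9 on the challenged arrays, wild type first. That probe was designed on base 140 of a predicted transcript. It ends 90 bases before the Pla2g4e start in the RefSeq table, and the window is shown for that reason, with the 60 bases of the probe in capitals.
Pla2g4e, chr2:120245286-120245585 (GRCm38.p6), minus strand: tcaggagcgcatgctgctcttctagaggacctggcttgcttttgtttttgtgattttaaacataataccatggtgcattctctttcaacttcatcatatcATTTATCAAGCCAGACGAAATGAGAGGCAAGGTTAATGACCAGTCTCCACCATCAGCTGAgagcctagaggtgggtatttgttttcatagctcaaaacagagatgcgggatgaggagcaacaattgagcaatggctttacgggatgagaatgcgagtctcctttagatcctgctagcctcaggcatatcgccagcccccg
The weak Pla2g4e signal thus comes from a probe upstream of the listed start, and the transcript's 3′ end gave none above background. The 4 differences of the brighter probe lay between −0.21 and 0.03, within the scanner error of 0.22.

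Pla2g7 stood apart on 1 array. Its product removes the acetyl group of platelet-activating factor, a lipid that contracts airways and draws in leukocytes. The brighter probe, at chr17:43749032-43749091 (plus strand, mm9), read 762 and 593 units on the control arrays and 642 and 1308 on the challenged arrays, wild type first. The challenged array labelled Pla2g3-/- was thus higher than the 3 others, which lay within 0.25 of each other on the log2 scale. The second probe, at chr17:43731745-43731804, read 104, 80.5, 86.6 and 169 units in the same order and gave the same picture.

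The challenge difference of Pla2g7 was −0.11 for wild type and 1.03 for cells labelled Pla2g3-/- (2.04-fold, scanner error 0.20). With the second probe it was −0.13 and 0.96, so the 2-fold mark was reached by 1 of 2 probes. The genotype difference was −0.25 without challenge and 0.90 under challenge, and −0.25 and 0.84 with the second probe. The difference between the 2 challenge effects was 1.14 (scanner error 0.29), which could not be tested with 1 array per group. In the additive limma fit the adjusted p was 0.540 for challenge and 0.783 for genotype.

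Macrophages are a known source of Pla2g7, and macrophage markers were highest on the same array. Of 13 macrophage markers, 13 were well above background on all arrays, and their summed level was 15.0 and 23.5 on the control arrays and 18.6 and 32.9 on the challenged arrays, wild type first. Between the challenged arrays 3 of the 13 (Marco, Mrc1 and Itgax) were at least 2-fold higher on the one labelled Pla2g3-/-, beside 3.84% of all genes. The median of the 13 was 0.75 against −0.05 over all genes. Neutrophil markers were higher there too, with 7 of 13 at least 2-fold higher and a median of 1.1. In the same comparison 5 of 13 T cell markers (median 0.95), 5 of 10 thymocyte markers (median 0.97) and 1 of 9 measured dendritic cell markers (median 0.62) were at least 2-fold higher. The part of these cells in the Pla2g7 signal was not tested. The genes with the pattern nearest to that of Pla2g7, looked up after its values were seen, were Pmaip1 (distance 0.02), Dmbt1 (0.04), Adamtsl3 (0.05), the dendritic cell receptor gene Clec9a (0.05), Arl11 (0.05) and Clca3b (0.06).

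**Figure D3:**
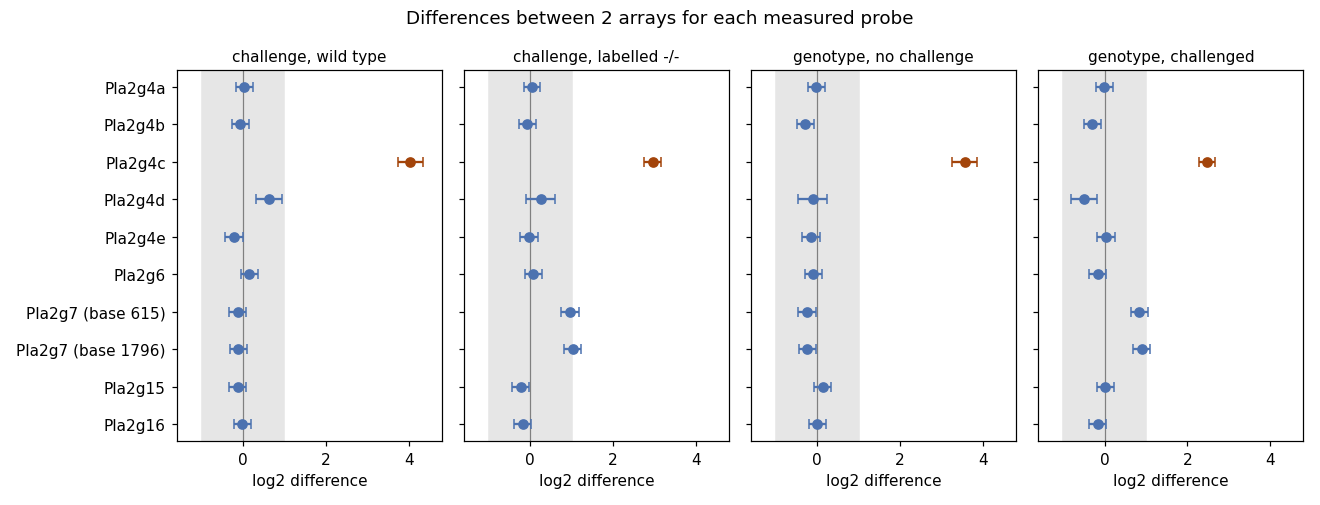
Log2 differences between 2 arrays for the 10 member probes above background on all arrays, in 4 panels for the 4 comparisons, with scanner errors as bars and the range below 2-fold shaded. Pla2g4c lies beyond 2-fold in every panel, and a Pla2g7 probe reaches it in 1 (1.03).

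Counted over the family, 9 of the 10 genes had a value in each comparison. At least 2-fold higher were 1 of 9 for challenge in wild type (Pla2g4c), beside 1.81% of all genes, and 2 of 9 for challenge in cells labelled Pla2g3-/- (Pla2g4c and Pla2g7), beside 3.87%. For genotype, 1 of 9 was higher without challenge, beside 3.19%, and 1 of 9 under challenge, beside 3.84%, both times Pla2g4c. No member was 2-fold lower, where the shares of all genes were 1.68%, 3.42%, 1.8% and 2.48% in that order. In either direction the shares of all genes were 3.49%, 7.28%, 4.99% and 6.32%. The family's median differences were −0.02, 0.04, −0.10 and −0.01, and those of all genes −0.03, −0.06, −0.03 and −0.05. The typical size of a difference, its median without regard to sign, was 0.13, 0.18, 0.12 and 0.17 in the family and 0.17, 0.23, 0.18 and 0.17 over all genes. Leaving aside Pla2g4c and Pla2g7, the 7 measured genes gave 28 differences, all between −0.49 and 0.63, and 23 of these were within 1 scanner error of zero.

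The enzymes that stand around these genes in lipid signalling were given by lists. The list of 17 regulators of cytosolic phospholipase A2 includes the kinases that phosphorylate it and the annexins that hold it back. Of the 17, 0 were at least 2-fold different in any of the 4 comparisons, beside 3.49% to 7.28% of all genes. The widest was Cerk, the kinase that makes the activator ceramide 1-phosphate, with 0.94 between the control arrays and −0.85 for challenge in cells labelled Pla2g3-/-. For challenge in wild type the widest were S100a10 (0.32), Prkcd (−0.26) and Pip5k1a (−0.24).

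Related intracellular lipases made another list. Of 30 genes, 1 (Pnpla5) was at least 2-fold higher after challenge in wild type, beside 1.81% of all genes. Pnpla5 was at least 1.04 higher on the log2 scale, a bound because its control array was not well above background. Under challenge, 1 was higher and 1 lower on the array labelled Pla2g3-/-, beside 3.84% and 2.48% of all genes. The higher gene was Plaat1, a relative of Pla2g16, which read 43.2 (control) and 30.5 (challenged) units in wild type and 78.5 and 67.1 on those labelled Pla2g3-/-, with genotype differences of 0.98 and 1.01. The lower gene, Plaat5, differed by 0.44 without and by −1.09 with challenge. In the remaining 2 comparisons 0 of 29 were 2-fold different, beside 7.28% (challenge) and 4.99% (genotype) of all genes.

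Secreted phospholipases A2 differed in single genes. Of 10 measured, Pla2g2d was lower after challenge in wild-type cells (−1.20) and also with the Pla2g3-/- label (−1.14), and Pla2g5 was higher in the latter (1.02) at 17.4 to 38.1 units. For genotype, Pla2g3 itself was the 1 gene beyond 2-fold in each condition. Over all genes, 3.49% to 7.28% were beyond 2-fold in a comparison.

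Enzymes that use arachidonic acid made a further list. Of 22 measured genes, 1 was at least 2-fold higher after challenge in wild type, beside 1.81% of all genes. In cells labelled Pla2g3-/- 5 were, beside 3.87%, with a median of 0.36 against −0.06 over all genes. Alox12e, an epidermal-type lipoxygenase, was higher in both (2.04 and 2.55), with 6304 units on the wild-type control and 23580 on the wild-type challenged array. Beside it and Ptgs2, those higher in cells labelled Pla2g3-/- were Cyp4f18 (1.60), the prostaglandin D synthase gene Hpgds (1.16) and the prostacyclin synthase gene Ptgis (1.09). For genotype, Ptgs2 was lower without challenge (−1.15) and higher with it (1.62), and Cyp4f18 was higher with it (1.21). No test compares this list with the members.

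Among 14 genes that put fatty acids back onto lysophospholipids, Lpcat2 differed by genotype in both conditions. It encodes an acyltransferase that also makes platelet-activating factor, the substrate of the Pla2g7 product. It read 482 (control) and 352 (challenged) units in wild type, and 1500 and 1277 on those labelled Pla2g3-/-. The differences were 1.75 and 1.73 (scanner error 0.20 each), while those for challenge were −0.32 and −0.34. Acsl4, which activates arachidonic acid for this step, had challenge differences of 0.54 and 0.91. For challenge, 0 of 13 measured genes were 2-fold different in either genotype, beside 3.49% (wild type) and 7.28% of all genes.

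**Figure D4:**
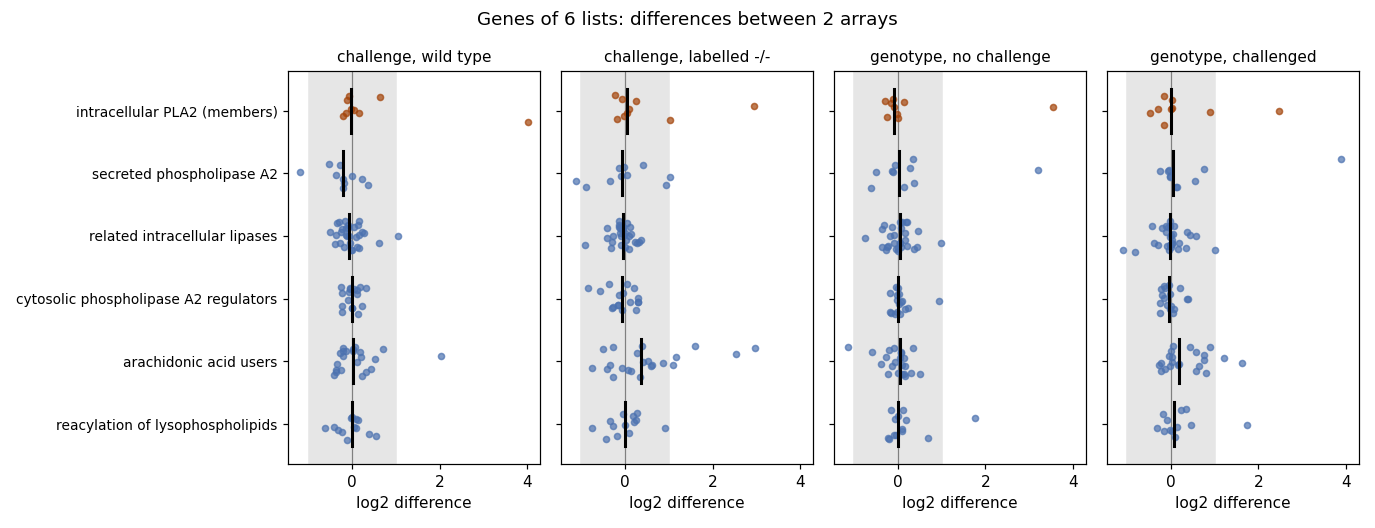
Log2 differences between 2 arrays for the members and for 5 lists of genes around them, 1 point per gene with the list median as a black bar, the range below 2-fold shaded, and bounds drawn at the bound. The members lie within 2-fold apart from Pla2g4c and, in 1 panel, Pla2g7 (1.03), which is at 0.90 for genotype under challenge. The list of arachidonic acid users spreads to the right for challenge in cells labelled Pla2g3-/- (median 0.36).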

How the data were processed

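Total RNA of each group, pooled from 4 samples, was labelled with Cy3 from 200 ng per the labels' protocols. Each array has a deposited scanner file with intensity values (Agilent Feature Extraction, version 11.5.1.1 per the file headers), and its probes are placed on mm9. Intensity values in the authors' series matrix, also deposited, equal the processed signal divided by the array's 75th percentile (column medians 0.0875, 0.0879, 0.0860 and 0.0850). Flags deposited by the authors for background, saturation and outlier spots are other 0 or 1 values.

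From the processed signal, log2 minus the log2 of the 75th percentile of its array was computed over 43020 spots that hold no control, less 128 to 155 outlier spots per array. No spot was saturated. Symbols came from RefSeq (GRCm38.p6) by accession for 28330 of 39429 probes, otherwise from the file, and 2462 probes without a name were left out. RefSeq start windows were found for 9 of the 10 members, all but Pla2g4b. A value not well above background on 1 of 2 arrays gave a bound, written "at least". The dim side was then set to its own signal or to the weakest signal with the above-background flag, whichever was higher. Genes well above background on at least 2 arrays entered limma 3.58.1 (R 4.3.3), with a variance trend and Benjamini-Hochberg adjustment. The fit was tested on simulated data, where a larger share of its calls was false than the threshold of 0.05 states, so its adjusted p-values may be too small. Alternatives were normexp background correction, quantile or median scaling, the series matrix, the choice of probe, the filter on dim genes, the variance trend and the other control array.

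The members, lists and tests were chosen with earlier results of these data known. Named genes were all members, up to 3 genes per list and comparison with the largest difference, the 6 genes nearest to Pla2g4c, and Pla2g3. Genes named outside that rule (Vmn1r89, Lig1, Cabp5, Pnpla5, Alox12e beside others beyond 2-fold, the genes nearest to Pla2g7 and the markers named) were chosen after their values were seen. Motifs were chosen after the Pla2g4c values were known. The number of arrays limits the precision.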

Additional observations from a re-analysis of the deposited data

How the results depend on the processing

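Under normexp background correction the Pla2g4c differences were 1.95 and 2.56 for challenge (wild type first), and 1.60 and 2.20 for genotype (control arrays first), all still beyond 2-fold. Members at least 2-fold higher for challenge in cells labelled Pla2g3-/- numbered 1 with normexp, 1 with probes of a gene averaged and 1 with the second brightest probe, against 2, because Pla2g7 fell below 2-fold. With the other control array, an alternative chosen after seeing the data, Pla2g4c was 0.48 higher in challenged wild type and 6.5 higher in challenged cells labelled Pla2g3-/-, and the members at least 2-fold higher were 0 and 1.

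All genes at least 2-fold higher and lower numbered 436 and 404 (challenge, wild type), 918 and 811 (challenge, labelled Pla2g3-/-), 764 and 430 (genotype, control arrays) and 915 and 592 (genotype, challenged arrays). With normexp they were 128 and 57, 378 and 319, 357 and 97, and 288 and 147 in that order. Restricted to the 22234 genes above background on every array they were 247 and 218 for challenge in wild type. Without the restriction 24080 genes had a value in that comparison. With it, 252 were lower between the control arrays (genotype), and 609 were higher and 376 lower between the challenged arrays. With the other control array 971 were lower for challenge in wild type.

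limma called 1 gene for challenge and 0 for genotype. For challenge it called 0 without a variance trend, 4 with normexp, 2 with quantile normalization, 4 when scaled to the median and 5 with the restricted genes. For genotype it called 10 with normexp and 8 with the restricted genes. Pla2g4c passed the threshold under none of the settings run. Where no cause is named above, the cause was not tested.

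For the other members, 230 of 236 differences under the alternatives moved by less than the scanner error and 6 by more. A change of sign was looked for only beyond 2-fold, which here was the Pla2g7 challenge difference alone (1.03), and it kept its sign. Smaller differences did change sign. With the other control array, challenge in wild type went from −0.07 to 0.23 for Pla2g4b and from −0.11 to 0.13 for Pla2g7. Many of the 230 could not move. The series matrix holds the same signal, the filter on dim genes leaves values as they are, and most members have 1 probe to choose. The 6 were Pla2g4d differences with normexp, and Pla2g4b and Pla2g7 differences with the other control array. Quantile normalization, scaling to the median and the series matrix moved no Pla2g4c difference by more than its scanner error. No paired analysis was possible because each group has 1 array. Signal near background limits Pla2g4c on the wild-type control array, Pla2g4d, Pla2g4e and Pla2g4f.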
